A study of Saccharomyces cerevisiae with 6 samples.

Results

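The genes described here build the peroxisome of budding yeast and run the breakdown of fatty acids inside it. They were taken by a rule on gene names, which was set with earlier results of these data known. The rule takes every spot whose platform symbol is PEX followed by a number. It adds 19 further genes of fatty acid activation, beta-oxidation, peroxisomal shuttles and their transcription factors. Of 5365 genes named on the array 44 met the rule, 26 of them PEX genes, and 41 had a value on at least 2 of 3 hybridizations. These 41 are described among the 5064 genes that met the same filter. OAF1 was not analysed here.

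Cells of Saccharomyces cerevisiae strain S288C, growing exponentially at an optical density of 1 in rich medium with glucose at 25 °C, were exposed to chloroacetaldehyde at 25 ppm for 2 h. Chloroacetaldehyde is a small reactive aldehyde that carries chlorine and modifies DNA bases and cysteine thiols. Polyadenylated RNA of the exposed cells (Cy5) was hybridized to 2-colour arrays against RNA of cells taken before the exposure (Cy3), in 3 hybridizations of independent biological samples, each read by the scanner with high and then with low power. The question is how transcripts differed after the exposure from those before it. Strain, medium and temperature were common to both RNA samples, and no culture was grown on without the compound. The further 2 h in culture, and the single dye order, cannot be told apart from the compound itself.

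Peroxisomes are the site of fatty acid beta-oxidation in this yeast. Their matrix enzymes are made in the cytosol, carried by receptors to a docking complex in the membrane and released inside, after which the receptors are ubiquitinated and pulled back out for another round. In glucose medium the genes of beta-oxidation are held low, and on fatty acids they are induced through the factors Oaf1 and Pip2 together with Adr1. PEX11, which drives peroxisome division, belongs to the genes induced in this way.

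All values are log2 ratios of exposed cells over cells before exposure, as deposited, with the scans present for a hybridization averaged. The labels give neither the log base nor the direction: base 2 was assumed, and the direction is the likely one, from the order of the channels. If it runs the other way, every sign below turns. A log2 ratio carries no level, so it does not show how strongly a gene was expressed, nor whether all cells of a culture changed or some of them. Markers of mating type could not be used to check the strain for the same reason. Each member had 1 spot. The number of arrays limits the precision.

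No member passed the test across all genes (0 of 41, limma with Benjamini-Hochberg adjustment at 0.05), where 2 of 5064 genes did (0.0395%). The member means ran from -0.63 for PEX27 to 0.64 for SPS19, so none was past 2-fold, against 1.28% of all genes. Adjusted p-values ran from 0.935 for PEX11 to 0.998 for PEX19. At an unadjusted p under 0.05 there was 1 member, PEX11, or 2.44%, where 5.0% of all genes stood below that value (2.41% with a positive and 2.59% with a negative mean). This count was 0 when replicate 1 or replicate 2 was left out and 2 without replicate 3 (PEX2 and PEX11). With all replicates kept, it was 2 after median centring (PEX11 and SPS19). It was 0 with trended and robust moderation, and 0 when testing was limited to genes that both scans measured. In the remaining settings it stayed at 1.

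Over the 41 members the means fell on both sides of 0 in similar numbers. Positive means were found for 20 of 41 members (48.8%), against 46.7% of all genes. The median of the member means was -0.0069, against -0.024 over all genes, and centring every hybridization on its median moved the members' value to 0.024. Leaving out replicate 1 gave -0.14 over 23 members, replicate 2 gave 0.082 over 37 and replicate 3 gave -0.15 over 27. The sign of the median thus differed between these settings. Each setting kept other members, so the part of the left-out hybridization itself cannot be told apart. On hybridizations 1, 2 and 3 the members' medians were 0.035, -0.17 and -0.15, against -0.048, -0.0040 and -0.039 over all genes. Positive values were found for 21 of 41, 9 of 27 and 16 of 37 members on these arrays. Over all genes they were found for 2343 of 5060, 1912 of 3852 and 2265 of 4858. Among the 23 members on all 3 hybridizations 8 means were positive and 15 negative. Their median was -0.10, against -0.037 over all such genes. Without replicate 3 the split was 7 to 20 and the median -0.15, against -0.046 over all genes then tested. The split over all genes is not given here for these settings.

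**Figure D1:**
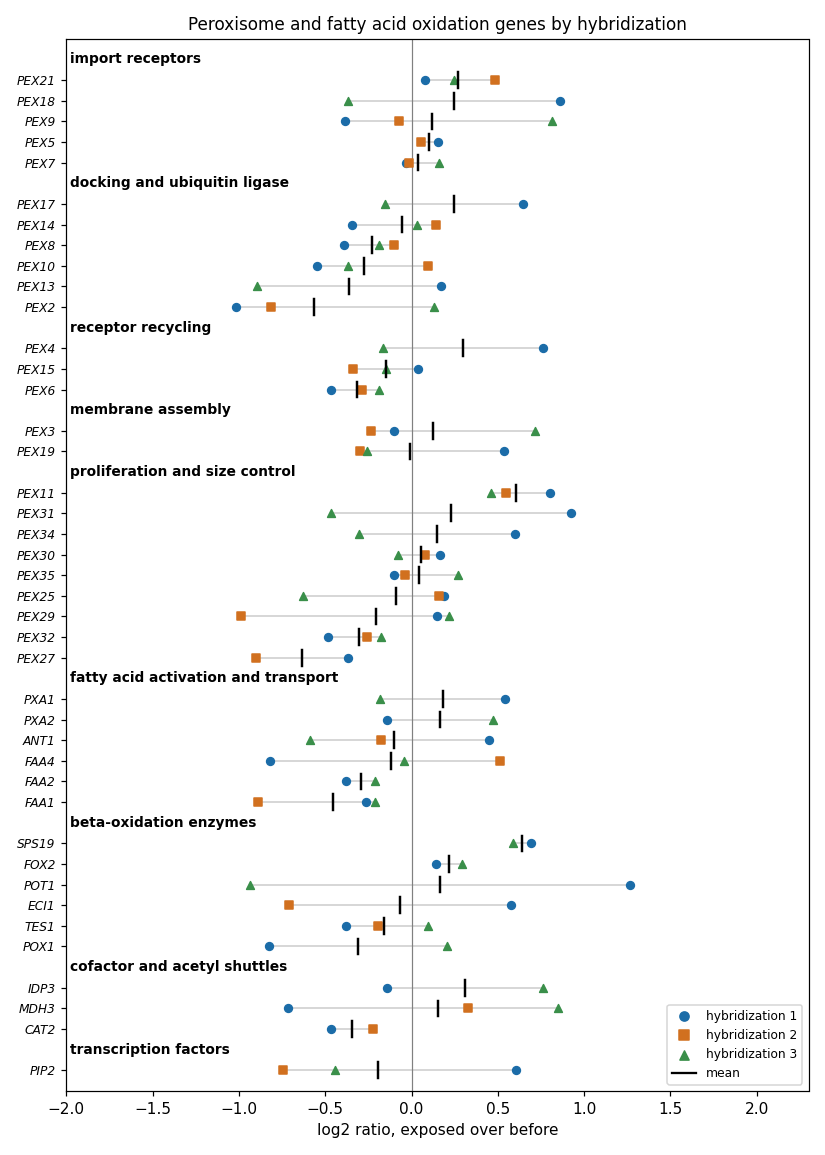
Log2 ratios of exposed cells over cells before exposure (x axis) for the 41 members, grouped by role and ordered by mean within each role. Each point is 1 hybridization, the black bar is the mean and the grey line spans the values. Points of 29 members lie on both sides of 0, and PEX11 lies between 0.46 and 0.81 on all 3.

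PEX11 (YOL147C) had the smallest p among the members. Its values were 0.81, 0.55 and 0.46 on the 3 hybridizations, all above 0, and its mean was 0.60 ± 0.18 (SD, n = 3), or 1.52-fold. Both scans of hybridization 1 gave positive values (0.69 at high and 0.92 at low power), as did both scans of hybridization 3 (0.44 and 0.48). The 95% confidence interval of the mean, before adjustment for the number of genes, ran from 0.078 to 1.13, and the unadjusted p was 0.0289 by limma. With all replicates kept, the unadjusted limma p of PEX11 ran from 0.02315 (median centred) to 0.07836 (trended and robust moderation). Its adjusted p was 0.935, since it ranked 156 of 5064 by p, and it ran from 0.573 to 0.998 over the other settings, with a mean between 0.50 and 0.70.

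Other genes that set peroxisome number had values on both sides of 0. PEX25, which acts with PEX11 in forming and dividing peroxisomes, had 0.19, 0.16 and -0.63, below PEX11 on each hybridization. The PEX25 value on hybridization 3 came from the low-power scan alone. PEX27, a relative of PEX25, was measured on hybridizations 1 and 2 alone, at -0.37 and -0.90 (mean -0.63, n = 2, adjusted p = 0.953, limma). PEX34, a membrane protein that also promotes proliferation, had 0.60 on hybridization 1 and -0.30 on hybridization 3 and no value on hybridization 2. PEX35, another regulator of peroxisome number, had -0.10, -0.035 and 0.27, on both sides of 0.

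PEX29, PEX30, PEX31 and PEX32 encode related membrane proteins of the endoplasmic reticulum that limit peroxisome size and number. PEX32 was below 0 on every hybridization, at -0.48, -0.26 and -0.18, with a mean of -0.31 ± 0.16 (SD, n = 3; limma adjusted p = 0.977). PEX30 lay close to 0, at 0.16, 0.075 and -0.078. PEX31 differed in sign, at 0.92 on hybridization 1 and -0.46 on hybridization 3, and PEX29 had 0.15, -0.99 and 0.22. These relatives therefore shared no direction, and PEX32 was below PEX30 on each array, by 0.65, 0.33 and 0.098.

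Receptors that bring enzymes to the peroxisome had small positive means, 5 of 5, between 0.038 and 0.27, each with a 95% interval that held 0. Among all genes 46.7% had a positive mean. PEX5 encodes the receptor for the C-terminal targeting signal, and it had 0.15 and 0.053 on hybridizations 1 and 2 and no value on hybridization 3. PEX9, a receptor for a few of the same cargoes, had -0.39, -0.073 and 0.82, which covers both directions. PEX7 is the receptor for the N-terminal signal carried by thiolase and stayed between -0.034 and 0.16 on the 3 hybridizations. These are averages of scans that differed in sign on hybridizations 1 and 2. The scans gave -0.19 and 0.12, then -0.25 and 0.22, at high and low power.

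Pex7 works with the co-receptors Pex18 and Pex21. PEX21, with scans averaged, was positive on every hybridization, with 0.076, 0.49 and 0.25 and a mean of 0.27 ± 0.21 (SD, n = 3; limma adjusted p = 0.977). Its scans of hybridization 1 differed in sign, with -0.059 at high and 0.21 at low power. PEX18 had 0.86 on hybridization 1 and -0.37 on hybridization 3, so the pair differed by 0.78 on the one and by -0.62 on the other, PEX18 minus PEX21. With the high-power scan alone 4 of the 5 receptor means were positive, and without replicate 3 the count was 2 of 4.

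At the membrane, the docking and ubiquitin ligase genes had negative means in 5 of 6 cases, with a median of -0.25, and 0 of 6 passed. Negative means were also found for 2698 of all 5064 genes. Without replicate 1 the role's median was -0.14, with 3 of 4 means negative. PEX2, a RING subunit of the ubiquitin ligase, had -1.02, -0.81 and 0.13, a mean of -0.57 ± 0.61 (SD, n = 3; limma adjusted p = 0.962). Hybridizations 1 and 2 stood far below 0 and hybridization 3 slightly above it, and without replicate 3 the mean was -0.91, with an adjusted p of 0.372 by limma. PEX10, its partner RING subunit, had -0.55, 0.092 and -0.37 (mean -0.27 ± 0.33, SD, n = 3), so that the subunits of one complex disagreed in sign on hybridizations 2 and 3.

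PEX13, a docking protein, had 0.17 on hybridization 1 and -0.90 on hybridization 3. PEX14, the docking site for the receptors, lay nearer to 0, at -0.34, 0.14 and 0.033. PEX17, a further docking subunit, had 0.64 on hybridization 1 and -0.15 on hybridization 3. PEX8, which links docking and ligase complexes from inside the organelle, was the member of this role below 0 on every hybridization, at -0.39, -0.10 and -0.19, with a mean of -0.23 ± 0.15 (SD, n = 3; limma adjusted p = 0.977).

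Among the genes that recycle receptors, PEX6 was below 0 throughout. It encodes an AAA ATPase that pulls ubiquitinated receptors from the membrane, and its values were -0.47, -0.29 and -0.19, with a mean of -0.31 ± 0.14 (SD, n = 3), 1.24-fold lower at an adjusted p of 0.977 by limma. Its membrane anchor PEX15 had 0.035, -0.34 and -0.15. The PEX15 scans of hybridization 1 differed in sign, with -0.091 at high and 0.16 at low power. PEX4, the ubiquitin-conjugating enzyme of the cycle, had 0.76 on hybridization 1 and -0.17 on hybridization 3, and PEX22, the anchor of Pex4, had a value of -0.54 on hybridization 1 alone and was left out of the 41. For membrane proteins, the chaperone gene PEX19 had 0.54, -0.30 and -0.26, and its docking factor gene PEX3 had -0.10, -0.23 and 0.71. The PEX3 scans of hybridization 1 also differed in sign, with 0.010 at high and -0.21 at low power. The PEX3 value on hybridization 3 came from the low-power scan alone.

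The core enzymes of beta-oxidation were measured on 2 hybridizations each, and the values of most disagreed. POX1, the acyl-CoA oxidase gene of the first step, had -0.83 on hybridization 1 and 0.21 on hybridization 3. FOX2, the gene of the hydratase and dehydrogenase of the middle steps, had 0.14 and 0.29 on the same arrays, a mean of 0.22 with a 95% interval from -0.47 to 0.90. POT1, the thiolase gene of the last step, had 1.26 and -0.93, further apart than any other member (2.20). The 3 steps of one cycle thus gave no common direction on hybridization 1.

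SPS19 (YNL202W) had the highest mean of all members. It encodes the dienoyl-CoA reductase needed for unsaturated fatty acids, and its values were 0.69 on hybridization 1 and 0.59 on hybridization 3, with none on hybridization 2. Its mean was 0.64, or 1.56-fold, with a 95% interval from -0.041 to 1.32 and an adjusted p of 0.953 by limma over 2 values. ECI1, the isomerase gene for the same substrates, had 0.57 on hybridization 1 and -0.71 on hybridization 2. Its relative DCI1 had a value of 0.14 on hybridization 1 alone, and the thioesterase gene TES1 had -0.38, -0.20 and 0.095.

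Fatty acids must be activated and brought in before they are oxidized. FAA1, the gene of the main long-chain acyl-CoA synthetase, was below 0 on every hybridization, at -0.26, -0.89 and -0.21, with a mean of -0.45 ± 0.38 (SD, n = 3; limma adjusted p = 0.977). FAA4, which overlaps with FAA1 in function, had -0.82, 0.51 and -0.044, so the genes differed by 0.56, -1.40 and -0.17, FAA1 minus FAA4. A spot for one of these close relatives can bind RNA of the other. FAA2, the synthetase gene of the peroxisome itself, had -0.38 on hybridization 1 and -0.21 on hybridization 3.

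PXA1 and PXA2, whose products together form the carrier of long-chain acyl-CoA into the organelle, had opposite signs on each array. PXA1 had 0.54 on hybridization 1 and -0.18 on hybridization 3, and PXA2 had -0.14 and 0.47. ANT1, the carrier that supplies ATP to Faa2, had 0.45, -0.17 and -0.59.

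Genes that regenerate cofactors and export acetyl units varied as widely. MDH3, the peroxisomal malate dehydrogenase gene, had -0.72, 0.33 and 0.85. Its scans agreed on each array, with -0.77 and -0.67, then 0.38 and 0.27, then 0.86 and 0.84 at high and low power. IDP3, the NADP-dependent isocitrate dehydrogenase gene, likewise was below 0 on hybridization 1 (-0.14) and above it on hybridization 3 (0.76). CAT2, the carnitine acetyltransferase gene, had -0.47 and -0.22 on hybridizations 1 and 2, and CRC1, the mitochondrial carnitine carrier gene, had 0.20 on hybridization 1 alone.

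PIP2, which encodes the fatty acid-induced partner of Oaf1, had 0.61, -0.74 and -0.44. Its mean of -0.19 ± 0.71 (SD, n = 3) was well within that spread (limma adjusted p = 0.977), and without replicate 2 it was 0.082.

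**Figure D2:**
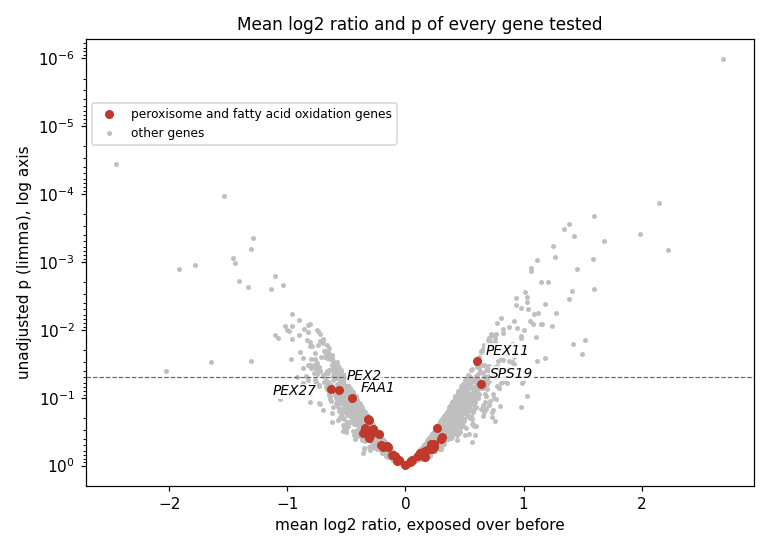
Mean log2 ratio of exposed cells over cells before exposure (x axis) and unadjusted limma p (y axis, log scale, small p at the top) for the 41 members in red and the other genes in grey, with a dashed line at 0.05. PEX11 at 0.60 is the member above the line, and all members lie between -0.63 and 0.64.

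Agreement in sign across hybridizations was about as common among the members as among all genes. Positive on every measured hybridization were 5 members (PEX11, SPS19, PEX21, FOX2 and PEX5), or 12.2%, against 14.7% of all genes. Negative on every one were 7 members (PEX27, FAA1, PEX6, PEX32, CAT2, PEX8 and FAA2), or 17.1%, against 18.1%. Without replicate 3 the negative count was 12 of 27, for which the share of all genes is not given here. Of the 23 members on all 3 hybridizations, 6 kept one sign (26.1%), where 27.5% of 3642 such genes did. With 3 values an exact two-sided sign-flip test cannot go below p = 0.25.

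The largest spreads between hybridizations exceeded those between scans, though this did not hold for every member. PEX7 spanned 0.19 over the hybridizations, while its scans of hybridization 2 were 0.47 apart. Across members with both scans, the median difference between high and low power was 0.154 on hybridization 1 (24 members), 0.0998 on hybridization 2 (8 members) and 0.128 on hybridization 3 (11 members). The largest scan differences were 0.43 for PEX19, 0.47 for PEX7 and 0.35 for FAA1, in the order of the hybridizations. By contrast the values of a member on different hybridizations lay more than 2-fold apart for 13 of 41 members, led by POT1 (2.20), MDH3 (1.57), PEX31 (1.39), PIP2 (1.35) and FAA4 (1.34). The share was 31.7%, against 26.7% of all genes. Across the 23 members on all arrays, Pearson's r was -0.0024 for hybridizations 1 with 2, -0.23 for 1 with 3 and 0.23 for 2 with 3. The same values were 0.21, -0.054 and 0.070 across 3642 genes, which share their arrays and are no replicates.

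The intervals show what these arrays could bound. For 27 of 41 members the 95% interval of the mean, before adjustment for the number of genes, lay within 2-fold in either direction (65.9%, against 74.6% of all genes). It reached past 2-fold for the other 14, among them PEX11, SPS19, PEX27, PEX2, POX1 and POT1. The interval of POT1 ran from -0.97 to 1.30, and that of PEX7, the narrowest, from -0.48 to 0.55. The median half-width over the members was 0.66 on the log2 scale. That is no limit of detection for an adjusted call, which needed far larger differences on these arrays.

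Missing values were frequent among the members and fell mostly on hybridization 2. A value on all 3 hybridizations was present for 23 of 44 genes of the rule (52.3%), against 67.9% of the 5365 genes on the array. Any low-power value was present for 25 of 41 members (61.0%), against 75.2% of all genes tested. Signal intensities were not used here, so how bright these spots were is unknown. Both POX1 and POT1 were among the members with high-power values alone.

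The 14 members without a value on hybridization 2 leaned opposite ways on the other arrays. Their medians were 0.57 on hybridization 1 and -0.17 on hybridization 3, against 0.10 and -0.078 for all 1212 genes with that pattern of values. In 8 of the 14 (57.1%) the value was above 0 on hybridization 1 and below 0 on hybridization 3, against 34.5% of the 1212. They were POT1, PEX31, PEX18, PEX4, PEX17, PEX34, PXA1 and PEX13. POX1, IDP3 and PXA2 had the opposite signs, SPS19 and FOX2 were positive on both, and FAA2 was negative on both. This grouping was noticed in the values and was not tested.

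**Figure D3:**
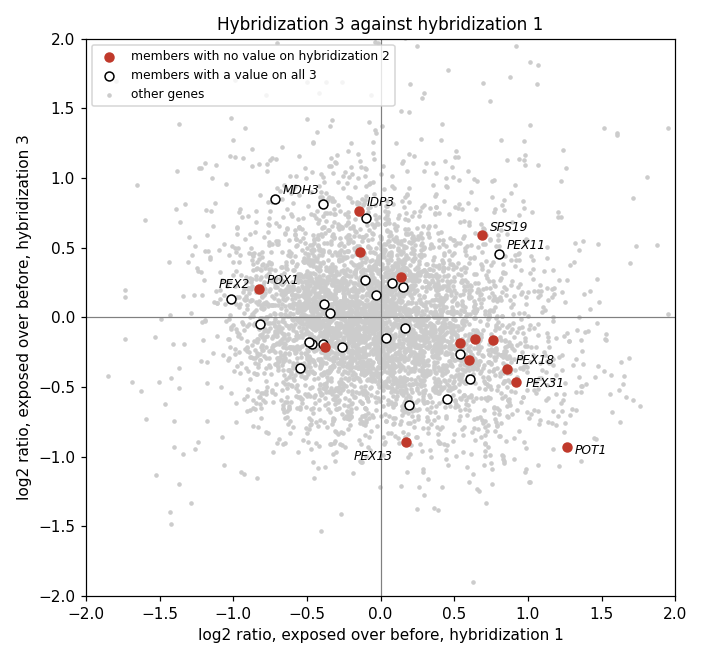
Log2 ratios of exposed cells over cells before exposure on hybridization 1 (x axis) and hybridization 3 (y axis). Red points are the 14 members without a value on hybridization 2, open points the 23 members on all 3 and grey points the other genes, of which 22 lie outside the axes. Of the red points 8 lie at the lower right, with POT1 furthest out at 1.26 and -0.93.

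Related genes outside the rule were described in 4 lists, also chosen with earlier results known, and 0 of their genes passed across all genes. Of 19 other peroxisomal enzymes and carriers 16 had at least 2 values, with 4 positive and 12 negative means. Among all 5064 genes 2698 had a negative mean. The median of the list was -0.15, against -0.024 over all genes. After centring the list's negative count was 11. The list's median was -0.065 without replicate 2 (10 of 16 negative) and -0.35 without replicate 3 (8 of 10 negative). The negative counts over all genes are not given here for these settings. FAT1, a fatty acid transport and very long-chain acyl-CoA synthetase gene, had -0.70, -0.69 and -0.13 (mean -0.51 ± 0.33, SD, n = 3; limma adjusted p = 0.953). CIT2, the peroxisomal citrate synthase gene of the glyoxylate cycle, had -0.78, -0.66 and -0.085 (mean -0.51 ± 0.37, SD, n = 3; limma adjusted p = 0.953). Both stood well below 0 on hybridizations 1 and 2 and close to it on hybridization 3.

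Of 8 genes of peroxisome division, inheritance and turnover, 4 had positive and 4 negative means, and the median was 0.018 (6 positive after centring). That median was 0.12, 0.14 and -0.0086, over 3, 6 and 5 genes, when replicates 1, 2 and 3 were left out in turn. ATG36, the receptor gene for the selective degradation of peroxisomes, had 1.03 on hybridization 1 and 0.76 on hybridization 3 and no value on hybridization 2. Its mean was 0.89, with an unadjusted p of 0.0174 and an adjusted p of 0.820 by limma. ATG11, the scaffold gene that joins such receptors to the autophagy machinery, had 0.51, 0.22 and 0.18, all above 0 (mean 0.30 ± 0.18, SD, n = 3; limma adjusted p = 0.977).

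Among 5 regulators of the oleate and glucose response, ADR1 was above 0 on every hybridization. It encodes an activator of beta-oxidation and peroxisome genes that works when glucose is exhausted, and its values were 0.53, 0.60 and 0.99. The mean was 0.71 ± 0.25 (SD, n = 3), with an unadjusted p of 0.0152 and an adjusted p of 0.804 by limma. SNF1, the kinase gene that relieves glucose repression, had 0.21, -0.79 and -0.71 (mean -0.43 ± 0.55, SD, n = 3; limma adjusted p = 0.977). The list held 3 positive and 2 negative means.

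Glucose-repressed genes of other pathways are relevant because the exposed cells were taken 2 h later than the cells before exposure. Of 9 such genes 4 had positive and 5 negative means, with a median of -0.068, and their medians on hybridizations 1, 2 and 3 were -0.33, 0.19 and 0.26. Leaving out replicate 1, 2 or 3 in turn gave medians of 0.0072, 0.16 and -0.26, over 5, 9 and 5 genes. The sign of the list's median thus differed between these settings, which did not keep the same genes. PCK1, a gluconeogenesis gene, had 0.89 on hybridization 1 and 0.68 on hybridization 3 (mean 0.79, n = 2; unadjusted p = 0.0293, adjusted p = 0.935, limma). ICL1, the isocitrate lyase gene, had -1.59, 0.43 and -0.73, in both directions (limma adjusted p = 0.977). Whether glucose depletion had a part in any member's value was not tested.

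**Figure D4:**
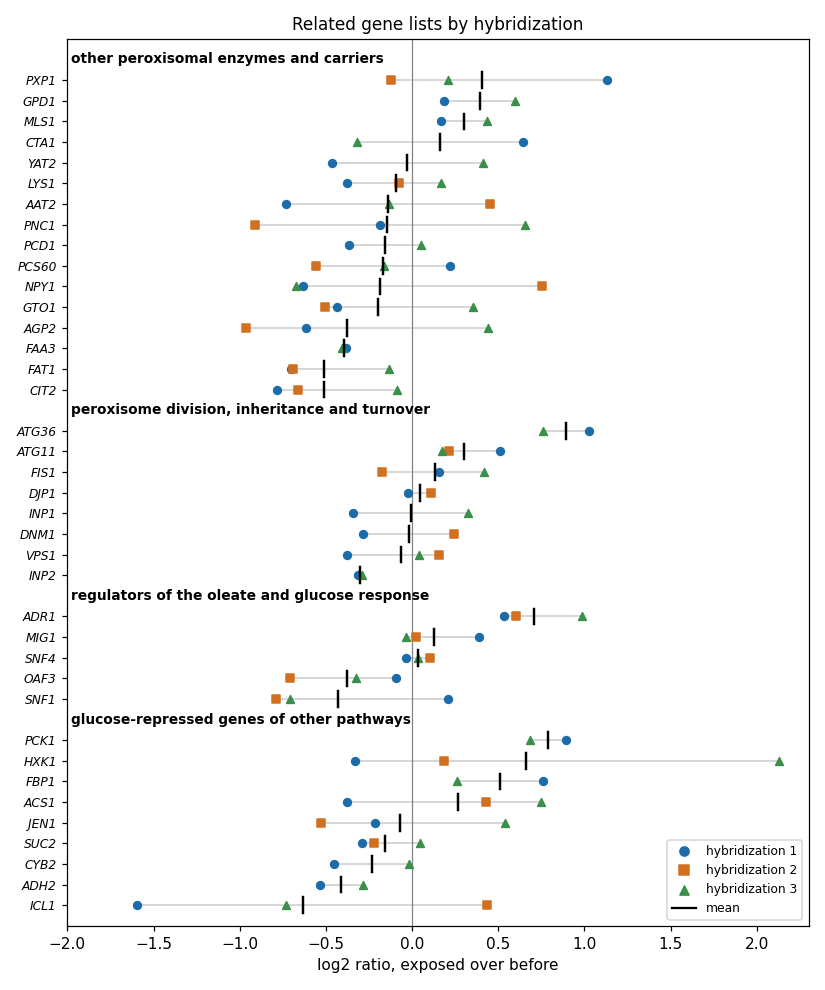
Log2 ratios of exposed cells over cells before exposure (x axis) for the genes of 4 related lists with at least 2 values, ordered by mean within each list. Points are hybridizations and black bars are means. ADR1, between 0.53 and 0.99, and ATG11, between 0.18 and 0.51, have all 3 points above 0.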

How the data were processed

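Per the labels, 2-colour arrays were scanned at high and low laser power, and ratios were normalized by the authors by LOWESS, scan by scan, using spots of flag 0. The deposited values were read as log2 ratios of exposed over before; the sources used here name no scanner, background correction or signal intensity. Scan medians ran from -0.039 to 0.020. LOWESS removes a shift common to most transcripts.

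For each of 3 hybridizations the scans present were averaged (a rescan is no replicate), then spots of a gene. The sources used here do not say whether the earlier RNA came from separate cultures. The 5064 genes with at least 2 values were set against 0 with limma 3.58.1 under R 4.3.3 (mean, eBayes, two-sided, Benjamini-Hochberg adjustment, threshold 0.05). Symbols came from the platform annotation and the R64 gene table. The files name no build, so no coordinates are given. The procedure was tested on simulated data.

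Members and lists were chosen with earlier results of these data known. All members are given; fold, interval or test is given mainly for the 12 with the smallest p and for POX1, FOX2, POT1, PIP2 and PEX11, and of each list the 2 genes with the smallest p are named.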

Additional observations from a re-analysis of the deposited data

How the results depend on the processing

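Under 10 alternative settings of genes tested, scan, centring, scaling, moderation and left-out replicate, 0 members passed. The genes past the threshold among all genes numbered 2, against 1 with the high-power scan or after centring, 7 over genes measured in both scans, and 0 with the low-power scan or with trended and robust moderation, and 0 to 3 without a replicate. Members positive on every hybridization numbered 5, against 2 over genes on all 3 hybridizations and 3 with the low-power scan or with both scans, settings that tested 23, 13 and 13 members. Members negative on every one numbered 7, against 4 over genes on all 3 hybridizations and 7 to 12 without a replicate. The median of the member means, -0.0069, ran from -0.15 to 0.082 without a replicate, settings that kept 23 to 37 members. Of 119 values of the 16 members named by rule, 1 changed sign: PIP2, which ran from -0.59 without replicate 1 to 0.082 without replicate 2. The cause of the PIP2 change was not tested. This count does not measure stability, since many of the values could not change. Taking only genes on all 3 hybridizations, or changing the moderation, leaves each mean as it was. Members with 2 values, such as POT1 and POX1, were not tested when 1 of their arrays was left out. Each hybridization is a ratio of both conditions on the same array, so the test against 0 already compares them in pairs. With 1 group, no further pairing was possible.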
